A study of Mus musculus with 6 samples.

Results

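Genes of redox defence and targets of the transcription factor NRF2 were examined in NIH/3T3 cells, an immortalized mouse embryonic fibroblast line, 48 h after Aldoa was silenced with a siRNA pool (siAldoa) or control siRNAs without a target were transfected in its place (siCtrl). Aldoa encodes aldolase A, a glycolytic enzyme. All cells were grown in DMEM with 10% fetal calf serum and Pen-Strep, and each group held 3 libraries of poly(A) RNA that the authors call biological replicates. The genes came from a list of 46 symbols of glutathione, thioredoxin and peroxide enzymes and NRF2-driven genes, matched to the table by symbol. The table of 18001 genes held 43 of them, and Gpx3, Gpx8 and Gsto1 were not analysed here.

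The authors deposited CPM, the reads of a gene scaled to an effective library size. In every library all values were whole multiples of the value of 1 read, and the reads recovered in this way summed to between 3692341 and 3771129 per library. At this depth 3 reads were worth 0.786 to 0.822 CPM. Aldoa stood at 522 to 545 CPM in siCtrl and 62.9 to 72.0 CPM in siAldoa, 12.7% of the control. All 9 fibroblast markers on the list used here were present, with a summed level of 13343 to 13865 CPM in siCtrl and 11178 to 11872 CPM in siAldoa, and 4 of them were called lower and 4 higher. In bulk RNA, fewer cells of a kind and less RNA per cell cannot be told apart. A CPM is a share of the library, so it gives no amount per cell.

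Cells remove superoxide and peroxides in linked steps. Superoxide dismutases turn superoxide into hydrogen peroxide, which catalase, the glutathione peroxidases and the peroxiredoxins reduce further. Glutathione and thioredoxin supply the electrons for most of these reactions and are themselves regenerated with NADPH by glutathione reductase and the thioredoxin reductases. NRF2, encoded by Nfe2l2, is held at a low level by KEAP1, which hands it to a ubiquitin ligase, and when KEAP1 is modified by electrophiles or oxidants NRF2 accumulates, pairs with a small MAF protein and binds antioxidant response elements in the promoters of many of these genes.

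Of the 43 genes, 10 were called lower and 9 higher in siAldoa, and 24 passed no threshold. The call was a limma adjusted p under 0.05 on log2(CPM + 1), from a two-sided test adjusted by Benjamini and Hochberg over the 18001 genes, of which 10.0% were called lower and 10.4% higher. Most of the listed genes were well expressed, and calls were more frequent among such genes. Of the 10059 genes with a mean of 10 CPM or more, 16.6% were called lower and 15.9% higher, and of the 40 listed genes at that level 10 were called lower and 8 higher. The median log2 fold change was -0.035 over the 43 genes and -0.0023 over all genes. The summed CPM of the 43 genes was 5106 ± 50.2 in siCtrl and 5069 ± 24.9 in siAldoa (SD, n = 3), 99.3% of the control. With calls in both directions, the summed share of the library differed by less than the SD of the siCtrl libraries.

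**Figure D1:**
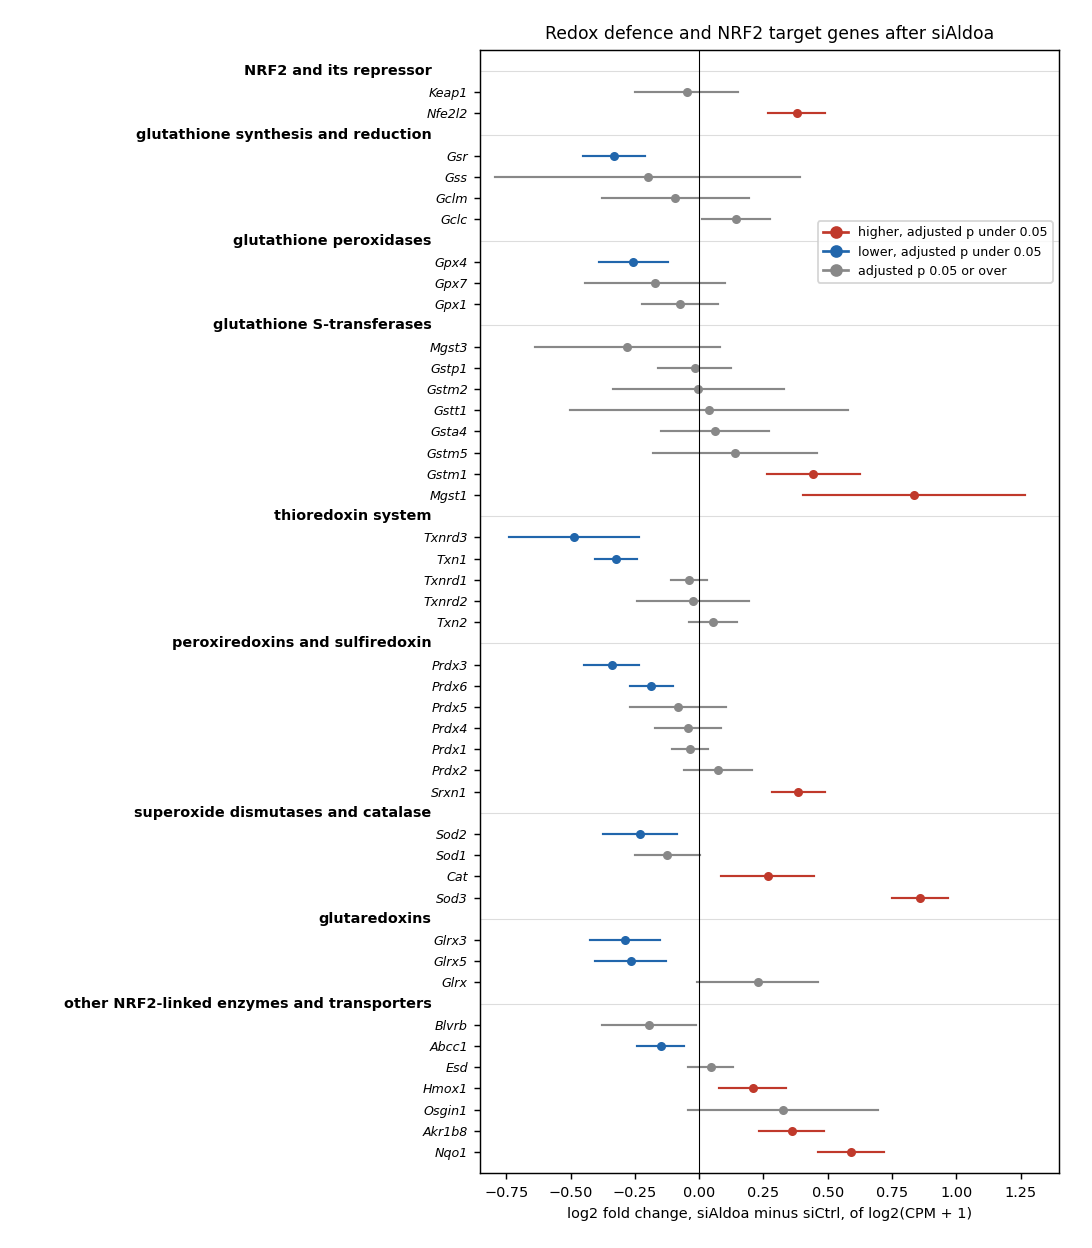
Log2 fold change of each of the 43 genes in siAldoa against siCtrl on the log2(CPM + 1) scale (x axis), ordered by role, with points for the estimate, bars for the 95% interval of the limma fit (3 libraries per group) and colours for the call. The highest values belong to Sod3 (0.86) and Mgst1 (0.83), and the lowest to Txnrd3 (-0.49), Prdx3 (-0.34) and Gsr (-0.33).

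The groups of libraries did not overlap for 12 genes that were lower and 10 that were higher in siAldoa, against 17.1% and 16.7% of all genes. These shares cover genes at every level, and no such share was taken for genes at 10 CPM or more. Replicates 1 and 2 of each group differed from each other by little more than counting error, so the spread between them may be technical. With these averaged and counted as 1 sample, 9 genes were called lower and 8 higher, and the calls of Cat (limma adjusted p = 0.0659) and Abcc1 (0.0875) were lost. With 3 libraries against 3, an exact two-sided permutation test of a single gene cannot go below p = 0.1, which all 19 called genes reached. Their fold changes were modest. They lay between -0.49 and -0.15 for the genes called lower and between 0.21 and 0.86 for those called higher. The limma fit lends each gene the spread of genes at a similar level, and without that trend the counts fell to 2 lower and 6 higher. Gsr, Gpx4, Txnrd3, Prdx6, Sod2, Glrx3, Glrx5, Abcc1, Mgst1, Cat and Hmox1 then had adjusted p between 0.0505 and 0.216.

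The levels per kilobase of exon in siCtrl spanned a wide range. Txn1 led with 454 CPM per kb, followed by Prdx1 with 210.2, Prdx3 with 115, Txnrd1 with 81.2 and Prdx6 with 77.7. These are thiol enzymes of the cytosol and, for Prdx3, of the mitochondrion. Gss and Gstt1 were at the bottom with 0.305 and 0.886 CPM per kb. They had 3 to 10 and 4 to 6 reads per library, and a change in them was not detectable at this depth.

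NRF2 itself was higher at the transcript level in siAldoa, while Keap1 was not called. Nfe2l2 (ENSMUSG00000015839, chr2:75675513-75704641, minus strand), the gene of NRF2, had 121, 126 and 123 CPM in siCtrl replicates 1, 2 and 3 and 164, 167 and 152 CPM in siAldoa replicates 1, 2 and 3. All siAldoa libraries lay above all siCtrl libraries, with replicate 3 the lowest of them. The means were 123 ± 2.27 CPM in siCtrl and 161 ± 8.04 CPM in siAldoa (SD, n = 3), so the level was 130.5% of the control (log2 fold change 0.38, standard error 0.0536, limma adjusted p = 1.15e-05). Keap1, its repressor, had 33.4, 33.6 and 35.7 CPM in siCtrl and 32.7, 35.3 and 31.4 CPM in siAldoa. Its groups overlapped, and the change was within the spread of the libraries (log2 fold change -0.048, 95% interval -0.25 to 0.15, limma adjusted p = 0.796). Keap1 shares 510 bases of exon with the antisense gene Gm16754, and whether the counting used strand is not given in the sources used here.

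The windows from 250 bases before to 50 bases after the RefSeq gene start (GRCm38.p6) were searched for the core of the antioxidant response element, TGACNNNGC, on both strands, where N is any base. Some genes have several RefSeq starts, and a gene was counted if any of its windows held the core. Windows were held for 36 of the 43 genes, of which 6 had more than 1 window, and those of Hmox1, Gclc, Gsr, Gsta4, Prdx6, Sod3 and Abcc1 were not analysed here. The core was found for 8 genes (22.2%), and for 14.0% of all 27025 genes with a window. Of the genes with a window, it was present in 3 of 7 called higher (Nfe2l2, Mgst1 and Srxn1), 0 of 7 called lower and 5 of 22 that passed no threshold (Prdx1, Txnrd1, Gclm, Gstm5 and Sod1). Each core is shown with the 10 bases on either side, 5′ to 3′ on the strand that reads it and with the core in capitals, first for the 3 genes called higher and then for the 5 that were not called.
Nfe2l2: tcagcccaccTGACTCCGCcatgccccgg
Mgst1: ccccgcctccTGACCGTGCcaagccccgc
Srxn1: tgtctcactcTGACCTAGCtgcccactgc
Prdx1: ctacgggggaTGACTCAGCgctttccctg
Txnrd1: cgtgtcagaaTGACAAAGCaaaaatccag
Gclm: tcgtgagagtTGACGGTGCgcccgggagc
Gstm5: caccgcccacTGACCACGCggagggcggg
Sod1: ggcctgagtcTGACCACGCccaccttggc
These bases lie at chr2:75704885-75704913 (minus strand), chr6:138140461-138140489 (minus strand), chr2:152105542-152105570 (minus strand), chr4:116685456-116685484 (minus strand), chr10:82859104-82859132 (minus strand), chr3:122245413-122245441 (minus strand), chr3:107895802-107895830 (plus strand) and chr16:90220696-90220724 (minus strand) in the same order. The core began 240 bases before the RefSeq start in Nfe2l2, 56 in Mgst1, 133 in Prdx1, 92 in Txnrd1, 134 in Gclm, 42 in Gstm5 and 56 in Sod1, counted to its leftmost base on the strand of the gene. In Srxn1 it began at base 29 with the start as base 1. Txnrd1 had 3 windows and Mgst1 had 2, and the core lay in 1 of them. For Txnrd1 that was the window of an alternative start inside the gene, with no core at the start farthest upstream, and for Mgst1 it was the window of the start farthest upstream. For Nfe2l2, the gene of NRF2 itself, the 250 bases before its start (chr2:75704664-75704913, minus strand) are given in full, with the core in capitals.
Nfe2l2: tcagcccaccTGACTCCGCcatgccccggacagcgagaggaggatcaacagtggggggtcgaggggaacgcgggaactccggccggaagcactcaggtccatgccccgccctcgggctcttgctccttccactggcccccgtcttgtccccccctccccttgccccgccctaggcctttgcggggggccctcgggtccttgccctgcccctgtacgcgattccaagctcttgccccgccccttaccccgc
A match of these letters is a description of the window and shows no binding, and genes with and without a call held one.

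Among the genes of glutathione synthesis and reduction, glutathione reductase fell and the synthesis genes passed no threshold. Gsr (ENSMUSG00000031584, chr8:33652523-33698163, plus strand), which reduces oxidized glutathione with NADPH, had 136, 128 and 127 CPM in siCtrl replicates 1, 2 and 3 and 106, 106 and 97.9 CPM in siAldoa replicates 1, 2 and 3. The siAldoa libraries were all lower than the siCtrl libraries, with a gap larger than the range within either group. The means were 130.1 ± 4.78 CPM in siCtrl and 103 ± 4.65 CPM in siAldoa (SD, n = 3), 79.4% of the control (log2 fold change -0.33, standard error 0.0576, limma adjusted p = 0.000157). Gclc, the catalytic subunit of the rate-limiting enzyme of glutathione synthesis, had 82.2, 84.8 and 92.9 CPM in siCtrl and 96.9, 92.5 and 97.7 CPM in siAldoa. The lowest siAldoa library lay just under the highest siCtrl library, and the gene was not called (log2 fold change 0.14, 95% interval 0.011 to 0.28, limma adjusted p = 0.126). Gclm, the modifier subunit, had 17.8, 15.6 and 17.7 CPM in siCtrl and 15.9, 15.5 and 16.2 CPM in siAldoa and was also not called (log2 fold change -0.093, 95% interval -0.38 to 0.19, limma adjusted p = 0.711). Part of the Gclm transcript, 287 bases, matches Ppia at 97.9% identity, a gene with 7760 reads over all libraries against 368 for Gclm, and reads in that stretch cannot be told apart from those of Ppia and its pseudogenes. Gss, glutathione synthetase, had too few reads for a comparison and overlaps Acss2 on the opposite strand.

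The 3 glutathione peroxidases all had negative log2 fold changes, and 1 passed the test. Gpx4 (ENSMUSG00000075706, chr10:80047166-80056439, plus strand), the selenoenzyme that reduces lipid hydroperoxides in membranes, had 86.6, 94.7 and 92.3 CPM in siCtrl replicates 1, 2 and 3 and 74.8, 74.03 and 79.9 CPM in siAldoa replicates 1, 2 and 3. The groups were apart, with means of 91.2 ± 4.17 CPM in siCtrl and 76.2 ± 3.18 CPM in siAldoa (SD, n = 3), 83.6% of the control (log2 fold change -0.26, standard error 0.0650, limma adjusted p = 0.006). Gpx1, the main cytosolic glutathione peroxidase and also a selenoenzyme, had 77.2, 76.9 and 82.8 CPM in siCtrl and 80.96, 68.4 and 75.7 CPM in siAldoa. Its groups overlapped (log2 fold change -0.076, 95% interval -0.22 to 0.072, limma adjusted p = 0.525). Gpx7, a peroxidase of the endoplasmic reticulum, had 18.4, 23.5 and 21.2 CPM in siCtrl and 19.4, 17.6 and 18.3 CPM in siAldoa (log2 fold change -0.17, 95% interval -0.44 to 0.10, limma adjusted p = 0.416).

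Of the 8 glutathione S-transferases, which attach glutathione to electrophiles, 2 rose, 0 fell and 6 were not called. Mgst1 (ENSMUSG00000008540, chr6:138140316-138156755, plus strand), a microsomal transferase with peroxidase activity, had 6.03, 4.38 and 8.20 CPM in siCtrl replicates 1, 2 and 3 and 11.6, 12.03 and 11.00 CPM in siAldoa replicates 1, 2 and 3, which is 16 to 45 reads. Every siAldoa library was above every siCtrl library, and the siCtrl libraries differed among themselves by more than the siAldoa libraries did. The means were 6.20 ± 1.92 CPM in siCtrl and 11.5 ± 0.518 CPM in siAldoa (SD, n = 3), 186% of the control (log2 fold change 0.83, standard error 0.208, limma adjusted p = 0.00522). Gstm1 (ENSMUSG00000058135, chr3:108012255-108017973, minus strand), a cytosolic transferase of the mu class, had 43.3, 39.1 and 41.8 CPM in siCtrl replicates 1, 2 and 3 and 52.4, 54.8 and 63.4 CPM in siAldoa replicates 1, 2 and 3. The groups were apart, and siAldoa replicate 3 was the highest. The means were 41.4 ± 2.11 CPM in siCtrl and 56.8 ± 5.78 CPM in siAldoa (SD, n = 3), 137% of the control (log2 fold change 0.44, standard error 0.0869, limma adjusted p = 0.00056). The pseudogene Gstm2-ps1 matches Gstm1 at 97.9% identity over 657 bases, and with the reads of both summed the log2 fold change was 0.33 (limma adjusted p = 0.000976).

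The pi-class transferase Gstp1, the most abundant of the group by CPM, had 78.6, 74.95 and 80.4 CPM in siCtrl and 75.6, 73.2 and 82.5 CPM in siAldoa and was not called (log2 fold change -0.018, 95% interval -0.16 to 0.12, limma adjusted p = 0.898). Its neighbour Gstp2, which matches it at 94.2% identity over 798 bases, was called lower (log2 fold change -0.32, limma adjusted p = 0.0103), and the sum of both was not called (log2 fold change -0.13, limma adjusted p = 0.131). Gsta4, an alpha-class enzyme that conjugates the lipid peroxidation product 4-hydroxynonenal, had 37.8, 30.4 and 37.3 CPM in siCtrl and 37.2, 38.5 and 34.04 CPM in siAldoa (log2 fold change 0.061, 95% interval -0.15 to 0.27, limma adjusted p = 0.747). Gstm2, Gstm5, Gstt1 and Mgst3 lay between 1.35 and 15.96 CPM in siCtrl, with log2 fold changes from -0.28 (Mgst3) to 0.14 (Gstm5) and adjusted p of 0.301 or more. Mgst3 had groups that did not overlap, at 10.96 to 12.7 CPM in siCtrl and 8.38 to 10.3 CPM in siAldoa.

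In the thioredoxin system the cytosolic protein and 1 reductase fell, and the mitochondrial pair was not called. Txn1 (ENSMUSG00000028367, chr4:57943373-57956411, minus strand), cytosolic thioredoxin, had 462, 471 and 498 CPM in siCtrl replicates 1, 2 and 3 and 389, 379.8 and 373 CPM in siAldoa replicates 1, 2 and 3. The siAldoa libraries formed a tight group well under the siCtrl libraries. The means were 477 ± 18.5 CPM in siCtrl and 381 ± 8.44 CPM in siAldoa (SD, n = 3), 79.8% of the control (log2 fold change -0.32, standard error 0.0392, limma adjusted p = 1.43e-06). The call of Txn1 was present under all 23 alternatives of processing, with adjusted p of at most 0.0459. The pseudogene Txn-ps1 matches Txn1 at 95.8% identity over 309 bases and was assigned nearly as many reads, which may come from Txn1. Txn-ps1 moved with Txn1 (log2 fold change -0.35, limma adjusted p = 2.7e-06), and the sum of both fell as well (log2 fold change -0.34, limma adjusted p = 1.45e-07).

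Txnrd3 (ENSMUSG00000000811, chr6:89643988-89675529, plus strand), a thioredoxin reductase with a glutaredoxin domain that is best known from the testis, had 31.2, 26.3 and 35.2 CPM in siCtrl replicates 1, 2 and 3 and 19.97, 23.5 and 21.5 CPM in siAldoa replicates 1, 2 and 3. The groups did not overlap, though siCtrl replicate 2 was close to siAldoa replicate 2. The means were 30.9 ± 4.47 CPM in siCtrl and 21.7 ± 1.78 CPM in siAldoa (SD, n = 3), 70.1% of the control (log2 fold change -0.49, standard error 0.121, limma adjusted p = 0.00512). The call was lost without siCtrl replicate 3 (log2 fold change -0.39, limma adjusted p = 0.0628).

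Txnrd1, the cytosolic thioredoxin reductase, was the most abundant gene of this group by CPM with 577, 585 and 564 CPM in siCtrl and 562, 556 and 562 CPM in siAldoa. All siAldoa libraries were slightly lower, and the gene was not called (log2 fold change -0.039, 95% interval -0.11 to 0.032, limma adjusted p = 0.485). The lower end of this interval is above the interval of Txn1, which ran from -0.41 to -0.24. Txn2, mitochondrial thioredoxin, had 187, 192 and 189.7 CPM in siCtrl and 198, 196 and 196 CPM in siAldoa, a small difference with groups that did not overlap (log2 fold change 0.054, 95% interval -0.04 to 0.15, limma adjusted p = 0.464). Txnrd2, its reductase, was at 28.3 CPM in siCtrl and 27.9 CPM in siAldoa (log2 fold change -0.024, 95% interval -0.24 to 0.19, limma adjusted p = 0.913).

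Of the 6 peroxiredoxins, 2 fell and 4 were not called, while sulfiredoxin rose. Prdx3 (ENSMUSG00000024997, chr19:60864051-60874556, minus strand), the peroxiredoxin of the mitochondrial matrix, had 166, 169.9 and 174 CPM in siCtrl replicates 1, 2 and 3 and 131, 141 and 130.4 CPM in siAldoa replicates 1, 2 and 3. The groups were clearly apart, and siAldoa replicate 2 was the highest of its group. The means were 169.7 ± 3.93 CPM in siCtrl and 134 ± 5.97 CPM in siAldoa (SD, n = 3), 78.9% of the control (log2 fold change -0.34, standard error 0.0520, limma adjusted p = 3.29e-05). Prdx6 (ENSMUSG00000026701, chr1:161240112-161251219, minus strand), the peroxiredoxin with a single active cysteine that uses glutathione, had 375, 359 and 387 CPM in siCtrl replicates 1, 2 and 3 and 329, 324 and 332 CPM in siAldoa replicates 1, 2 and 3. The siAldoa libraries lay within a narrow range under the controls, with means of 373 ± 14.3 CPM in siCtrl and 328 ± 3.94 CPM in siAldoa (SD, n = 3), 87.9% of the control (log2 fold change -0.19, standard error 0.0404, limma adjusted p = 0.00159). Summed with its near copy Prdx6b it had a log2 fold change of -0.18 (limma adjusted p = 0.00125).

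Srxn1 (ENSMUSG00000032802, chr2:152105516-152111376, plus strand) encodes sulfiredoxin, which repairs peroxiredoxins whose cysteine has been overoxidized. It had 189.5, 181 and 179 CPM in siCtrl replicates 1, 2 and 3 and 248, 223 and 249 CPM in siAldoa replicates 1, 2 and 3. All siAldoa libraries were above the siCtrl libraries, with replicate 2 lowest among them. The means were 183 ± 5.49 CPM in siCtrl and 240.1 ± 14.5 CPM in siAldoa (SD, n = 3), 131% of the control (log2 fold change 0.39, standard error 0.0501, limma adjusted p = 3.68e-06).

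Prdx1, a cytosolic peroxiredoxin and the most abundant of the 43 genes by CPM, had 647, 633 and 639 CPM in siCtrl and 616, 634 and 623 CPM in siAldoa. Its groups overlapped, and it was not called (log2 fold change -0.035, 95% interval -0.10 to 0.034, limma adjusted p = 0.528). Its pseudogenes Gm21399 and Gm7204 match it at 98.3% and 97.5% identity over 597 bases. They were assigned 7719 and 2387 reads over all libraries against 14124 for Prdx1, and reads assigned to them may come from Prdx1. The sum of the 3 was not called either (log2 fold change -0.026, limma adjusted p = 0.624). Prdx2, another cytosolic peroxiredoxin, had 111, 99.03 and 99.7 CPM in siCtrl and 117, 103 and 106 CPM in siAldoa (log2 fold change 0.075, 95% interval -0.058 to 0.21, limma adjusted p = 0.478). Prdx4, of the endoplasmic reticulum, and Prdx5, of mitochondria and peroxisomes, had log2 fold changes of -0.044 and -0.082 with limma adjusted p of 0.695 and 0.598. Prdx2 and Prdx5 overlap genes on the opposite strand, in 19.1% of the exonic length for Prdx5 and Trmt112.

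Of the 3 superoxide dismutases, the extracellular enzyme rose, the mitochondrial enzyme fell and the cytosolic enzyme was not called. Sod3 (ENSMUSG00000072941, chr5:52363791-52371418, plus strand), the secreted extracellular enzyme, had 105, 103 and 97.4 CPM in siCtrl replicates 1, 2 and 3 and 187, 187 and 182 CPM in siAldoa replicates 1, 2 and 3. Its siAldoa values were nearly equal to each other and well above the siCtrl libraries. The means were 102 ± 4.10 CPM in siCtrl and 185 ± 2.55 CPM in siAldoa (SD, n = 3), 182% of the control (log2 fold change 0.86, standard error 0.0528, limma adjusted p = 3.13e-11), the highest log2 fold change of the 43 genes. Sod2 (ENSMUSG00000006818, chr17:13006846-13040063, plus strand), the manganese enzyme of the mitochondrial matrix, had 90.4, 89.7 and 84.9 CPM in siCtrl replicates 1, 2 and 3 and 77.2, 80.7 and 68.1 CPM in siAldoa replicates 1, 2 and 3. The groups did not overlap, but siAldoa replicate 2 came close to siCtrl replicate 3. The means were 88.3 ± 2.98 CPM in siCtrl and 75.3 ± 6.52 CPM in siAldoa (SD, n = 3), 85.3% of the control (log2 fold change -0.23, standard error 0.0700, limma adjusted p = 0.0207). The call of Sod2 was lost without siCtrl replicate 1 (limma adjusted p = 0.0965), siCtrl replicate 2 (0.0926), siAldoa replicate 1 (0.0557) or siAldoa replicate 3 (0.136). A Sod2 transcript matches a stretch of 3110 bases of Rps6ka2 at 98.2% identity. Rps6ka2 had 1411 reads over all libraries against 1827 for Sod2. Reads in that stretch may belong to either gene, and no sum of both was made.

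Sod1, the copper and zinc enzyme of the cytosol, had 107, 121 and 117 CPM in siCtrl and 107, 101 and 109 CPM in siAldoa. Its groups overlapped, and it was not called (log2 fold change -0.12, 95% interval -0.25 to 0.0023, limma adjusted p = 0.172). Cat (ENSMUSG00000027187, chr2:103453849-103485160, minus strand) encodes catalase, which breaks down hydrogen peroxide in peroxisomes. It had 38.9, 36.4 and 41.3 CPM in siCtrl replicates 1, 2 and 3 and 46.4, 44.9 and 49.5 CPM in siAldoa replicates 1, 2 and 3. Every siAldoa library was above every siCtrl library, with means of 38.8 ± 2.45 CPM in siCtrl and 46.9 ± 2.34 CPM in siAldoa (SD, n = 3), 121% of the control (log2 fold change 0.27, standard error 0.0871, limma adjusted p = 0.0311). The call of Cat was lost without siCtrl replicate 1 (limma adjusted p = 0.0768), siCtrl replicate 2 (0.126), siAldoa replicate 1 (0.0772), siAldoa replicate 2 (0.053) or siAldoa replicate 3 (0.131).

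Glutaredoxins reduce disulfides that hold glutathione, and some of them carry iron-sulfur clusters. Of the 3 genes, 2 fell. Glrx3 (ENSMUSG00000031068, chr7:137437614-137468594, plus strand), a cytosolic iron-sulfur protein, had 92.6, 107 and 104 CPM in siCtrl replicates 1, 2 and 3 and 80.2, 85.5 and 81.7 CPM in siAldoa replicates 1, 2 and 3. No siAldoa library reached the siCtrl libraries, of which replicate 1 was nearest. The means were 101 ± 7.49 CPM in siCtrl and 82.5 ± 2.77 CPM in siAldoa (SD, n = 3), 81.6% of the control (log2 fold change -0.29, standard error 0.0657, limma adjusted p = 0.00238). The pseudogene Gm12669 matches it at 99.1% identity over 1014 bases. More reads were assigned to Gm12669 than to Glrx3, at 145 CPM in siCtrl and 136 CPM in siAldoa. Reads assigned to Gm12669 may come from Glrx3, so these values do not show that the pseudogene is expressed. The sum of both had a smaller log2 fold change of -0.17 (limma adjusted p = 0.0133). Glrx5 (ENSMUSG00000021102, chr12:105032688-105042906, plus strand), which serves iron-sulfur cluster assembly in mitochondria, had 82.2, 83.7 and 87.3 CPM in siCtrl replicates 1, 2 and 3 and 69.9, 66.8 and 73.3 CPM in siAldoa replicates 1, 2 and 3. The groups were apart, with means of 84.4 ± 2.64 CPM in siCtrl and 70.01 ± 3.25 CPM in siAldoa (SD, n = 3), 82.95% of the control (log2 fold change -0.27, standard error 0.0663, limma adjusted p = 0.005). Glrx, cytosolic glutaredoxin 1, had 26.6, 22.7 and 30.2 CPM in siCtrl and 31.8, 29.7 and 31.4 CPM in siAldoa, a difference in the other direction that was not called (log2 fold change 0.23, 95% interval -0.0069 to 0.46, limma adjusted p = 0.178).

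Among the other NRF2-linked enzymes and transporters, 3 rose, 1 fell and 3 were not called. Nqo1 (ENSMUSG00000003849, chr8:107388225-107403206, minus strand), the quinone reductase that is widely used as a readout of NRF2, had 82.99, 85.6 and 90.7 CPM in siCtrl replicates 1, 2 and 3 and 125, 126 and 141 CPM in siAldoa replicates 1, 2 and 3. The siAldoa libraries were all far above the siCtrl libraries, with replicate 3 highest in both groups. The means were 86.5 ± 3.94 CPM in siCtrl and 131 ± 9.17 CPM in siAldoa (SD, n = 3), 151% of the control (log2 fold change 0.59, standard error 0.0626, limma adjusted p = 2.10e-07). Akr1b8 (ENSMUSG00000029762, chr6:34354119-34368463, plus strand), an aldo-keto reductase that reduces lipid aldehydes, had 89.02, 86.7 and 92.9 CPM in siCtrl replicates 1, 2 and 3 and 112, 123 and 111 CPM in siAldoa replicates 1, 2 and 3. The groups were apart, with means of 89.5 ± 3.11 CPM in siCtrl and 115 ± 6.49 CPM in siAldoa (SD, n = 3), 129% of the control (log2 fold change 0.36, standard error 0.0611, limma adjusted p = 0.000118). Its relative Akr1b10 shares 250 bases of transcript with it at 95.6% identity and was also called higher (log2 fold change 0.81, limma adjusted p = 0.0131). Akr1b10 had 13 to 38 reads per library, and 151 over all libraries against 2291 for Akr1b8. Reads in the shared stretch may belong to either gene, and no sum of both was made.

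Hmox1 (ENSMUSG00000005413, chr8:75093621-75100589, plus strand), heme oxygenase 1, had 79.7, 84.5 and 78.05 CPM in siCtrl replicates 1, 2 and 3 and 90.9, 92.7 and 96.6 CPM in siAldoa replicates 1, 2 and 3. The siAldoa libraries were above the siCtrl libraries by a small margin, with means of 80.8 ± 3.37 CPM in siCtrl and 93.4 ± 2.90 CPM in siAldoa (SD, n = 3), 116% of the control (log2 fold change 0.21, standard error 0.0629, limma adjusted p = 0.0199). The call of Hmox1 was lost without siCtrl replicate 1 (limma adjusted p = 0.0671), siCtrl replicate 3 (0.0825), siAldoa replicate 2 (0.0574) or siAldoa replicate 3 (0.0879). Abcc1 (ENSMUSG00000023088, chr16:14361558-14475737, plus strand), which exports glutathione conjugates from the cell, had 272, 269 and 257 CPM in siCtrl replicates 1, 2 and 3 and 235, 240.3 and 245 CPM in siAldoa replicates 1, 2 and 3. The siAldoa libraries were lower than the siCtrl libraries by a small margin, with means of 266 ± 8.18 CPM in siCtrl and 239.8 ± 5.04 CPM in siAldoa (SD, n = 3), 90.1% of the control (log2 fold change -0.15, standard error 0.0436, limma adjusted p = 0.0157). Its call was lost without siCtrl replicate 1 (limma adjusted p = 0.0764), siCtrl replicate 2 (0.0658), siAldoa replicate 1 (0.0778) or siAldoa replicate 2 (0.0535). DESeq2 on the recovered reads did not call Hmox1, Sod2, Cat or Abcc1, with adjusted p of 0.118, 0.103, 0.164 and 0.0544.

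Esd, an esterase that splits S-formylglutathione, had 248, 251 and 262 CPM in siCtrl and 261, 262 and 261 CPM in siAldoa (log2 fold change 0.044, 95% interval -0.044 to 0.13, limma adjusted p = 0.536). Blvrb, a biliverdin reductase, had 55.9, 58.5 and 68.5 CPM in siCtrl and 52.1, 48.1 and 59.2 CPM in siAldoa (log2 fold change -0.20, 95% interval -0.38 to -0.011, limma adjusted p = 0.135). Osgin1, an oxidative stress-induced growth inhibitor, lay at 11.7 ± 2.50 CPM in siCtrl and 14.8 ± 2.55 CPM in siAldoa (SD, n = 3) and was not called (log2 fold change 0.33, 95% interval -0.042 to 0.70, limma adjusted p = 0.223). All 3 had overlapping groups.

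**Figure D2:**
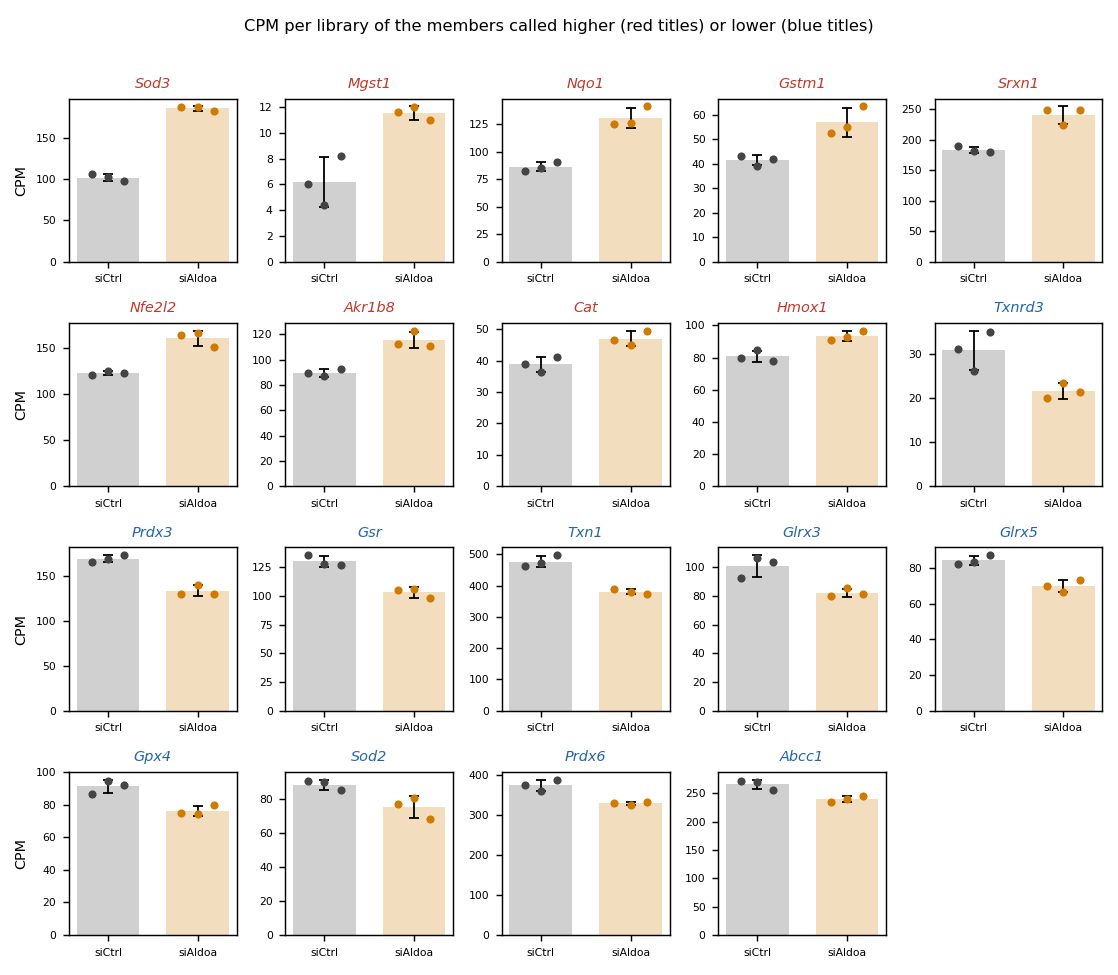
CPM of the 9 genes called higher (red titles) and the 10 called lower (blue titles) in each of the 3 siCtrl and 3 siAldoa libraries (y axis from 0, in CPM), with points for libraries in the order of replicates 1 to 3, bars for means and error bars for the SD. In all 19 panels the points of the 2 groups do not overlap. Sod3 had 97.4 to 105 CPM in siCtrl and 182 to 187 CPM in siAldoa.

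The calls were also counted by enzyme class, where each class holds few genes and 16.6% of all genes at 10 CPM or more were called lower and 15.9% higher. The glutathione enzymes proper (synthesis, reduction and peroxidases) had 2 called lower and 0 higher of 7, of which Gss was under 10 CPM. The thioredoxin system had 2 lower and 0 higher of 5, and the glutaredoxins 2 lower and 0 higher of 3. The transferases had 0 lower and 2 higher of 8. Of these, Mgst1 and Gstt1 were under 10 CPM, and the other 6 held 0 called lower and 1 higher. Calls went both ways in the peroxiredoxins with sulfiredoxin (2 lower and 1 higher of 7), the superoxide dismutases with catalase (1 lower and 2 higher of 4) and the other NRF2-linked genes (1 lower and 3 higher of 7). The summed CPM was 91.8% of the control for glutathione synthesis and reduction, 88.8% for the glutathione peroxidases, 91.2% for the thioredoxin system, 97.5% for the peroxiredoxins with sulfiredoxin and 86.5% for the glutaredoxins. It was 110.2% for the glutathione S-transferases, 120.03% for the superoxide dismutases with catalase, among which Sod3 rose from 102 to 185 CPM, and 107.0% for the other NRF2-linked genes. These sums are ruled by the abundant genes, and differences between classes were not tested.

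**Figure D3:**
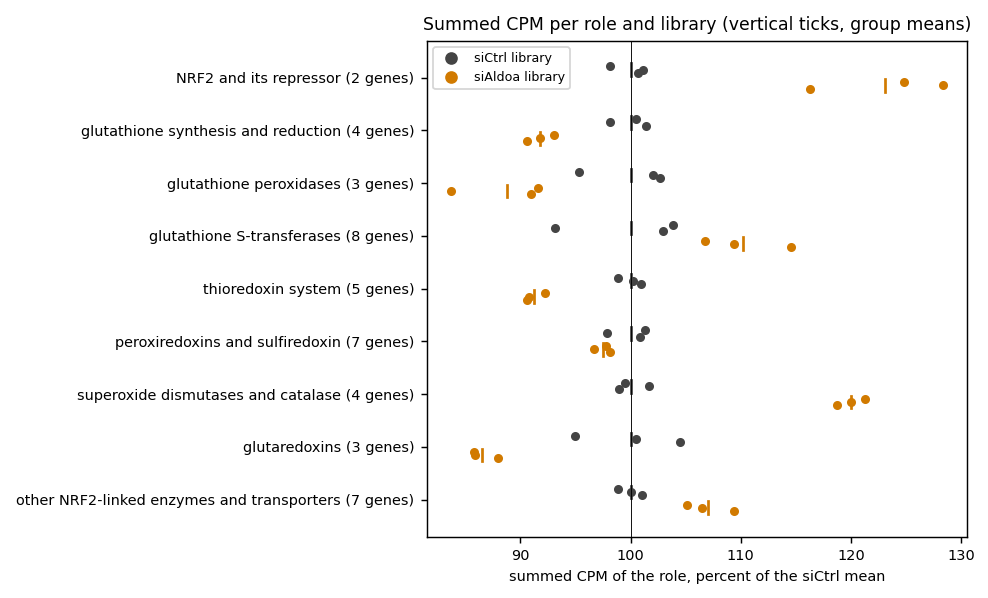
Summed CPM of each role in every library, as a percentage of the mean of the 3 siCtrl libraries (x axis), with points for libraries and vertical ticks for group means. Sums in siAldoa were lowest for the glutaredoxins (86.5%) and highest for Nfe2l2 with Keap1 (123.1%), and the sum of Nfe2l2 and Keap1 is mostly that of Nfe2l2.

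Of the 43 genes, 18 are commonly listed as driven by NRF2, a list chosen here with earlier results of these data known. In siAldoa 6 of the 18 were called higher (Nqo1, Hmox1, Srxn1, Gstm1, Mgst1 and Akr1b8) and 3 lower (Gsr, Txn1 and Abcc1). The other 9 passed no threshold, among them Gclc, Gclm, Txnrd1 and Prdx1. The median log2 fold change of the 18 was 0.053, with a range from -0.33 to 0.83, and their summed CPM was 99.7% of the control. Of the other 25 genes, 7 were called lower and 3 higher, with a median of -0.076. Of the 17 NRF2-driven genes at 10 CPM or more, which leaves out Mgst1, 5 (29.4%) were called higher and 3 (17.6%) lower, beside 15.9% and 16.6% of all genes at that level, and no test was made between the lists. By compartment, 3 of the 6 mitochondrial proteins (Prdx3, Sod2 and Glrx5) were called lower and 0 higher, with a median of -0.16. Txn2, Txnrd2 and Prdx5 were not called. All 6 were at 10 CPM or more, where 16.6% of all genes were called lower and 15.9% higher. Of 23 alternatives of processing, the call of Prdx3 held in 22, that of Glrx5 in 19 and that of Sod2 in 14. Of the 3 proteins of the secretory pathway or the extracellular space, 1 was called higher (Sod3) and 0 lower, and Gpx7 and Prdx4 were not called.

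Of 25 further genes linked to NRF2 that are not among the 43, 5 were called higher and 3 lower, with a median log2 fold change of 0.032. At 10 CPM or more 3 of 18 (16.7%) were called higher and 3 of 18 (16.7%) lower, near the 15.9% higher and 16.6% lower of all genes at that level. The 2 lowest with a call were Ugdh, a UDP-glucose dehydrogenase (log2 fold change -0.33, limma adjusted p = 7.14e-06), and Tkt, transketolase (log2 fold change -0.19, limma adjusted p = 0.00586). The 2 highest were Akr1b10 and Gstm6, the latter with 0 to 4 reads per library (log2 fold change 0.75, limma adjusted p = 0.0394). The remaining ones, named after their values were seen, were Me1, Taldo1 and Ptgr1, called higher with log2 fold changes of 0.20, 0.25 and 0.28, and the ferritin heavy chain Fth1, called lower with -0.15.

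On a list of 16 partners and regulators of NRF2, all were at 10 CPM or more. Of the 16, 5 (31.2%) were called higher and 0 lower, against 15.9% and 16.6% of all genes at that level. The list was chosen with earlier results of these data known and was not tested. Sesn1, a sestrin that promotes KEAP1 turnover, went from 30.96 to 58.1 CPM (log2 fold change 0.89, limma adjusted p = 1.53e-07). Another sestrin of the list, Sesn2, named after its values were seen, went from 76.3 to 67.8 CPM and was not called (log2 fold change -0.17, limma adjusted p = 0.146). Maff, a small MAF protein that pairs with NRF2 on DNA, went from 29.9 to 52.5 CPM (log2 fold change 0.79, limma adjusted p = 6.21e-07). The remaining 3, named after their values were seen, were the small MAF genes Mafg, from 169 to 250.03 CPM (log2 fold change 0.56, limma adjusted p = 3.64e-09), and Mafk (log2 fold change 0.32, limma adjusted p = 0.0041), and the coactivator gene Crebbp (log2 fold change 0.31, limma adjusted p = 0.00289). All 3 small MAF genes were thus called higher together with Nfe2l2, and in each the groups did not overlap.

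Gsr and the thioredoxin reductases consume NADPH. On a list of 13 genes linked to its supply, 5 were called higher (38.5%) and 4 lower (30.8%). All 13 were at 10 CPM or more, where 15.9% and 16.6% of all genes were called. Not all of them make NADPH themselves, and the NAD kinases and Tkt do not. Nadk2, the mitochondrial NAD kinase, had 141, 117 and 124 CPM in siCtrl and 298, 304 and 299 CPM in siAldoa (log2 fold change 1.24, limma adjusted p = 1.46e-13). The libraries of the 2 groups were far apart. Nnt, the mitochondrial transhydrogenase, was the second highest (log2 fold change 0.38, limma adjusted p = 7.91e-06). The 2 lowest with a call were Nadk, the cytosolic NAD kinase (log2 fold change -0.20, limma adjusted p = 0.00863), and Tkt. The remaining calls, named after their values were seen, were Idh1, Taldo1 and Me1 (higher) and Idh2 and Mthfd1 (lower), with log2 fold changes between -0.19 and 0.29. Me1, Pgd, Tkt and Taldo1 are on both of these lists.

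Selenoproteins outside the 43 genes had 4 called lower and 1 higher of 12, with a median of -0.076. At 10 CPM or more the counts were 4 and 1 of 10, against 16.6% and 15.9% of all genes. The 2 lowest were Selenow (Sepw1 in the table; log2 fold change -0.33, limma adjusted p = 0.0263) and Selenoi (Ept1 in the table; log2 fold change -0.31, limma adjusted p = 0.000994). Sephs2 and Selenot (Selt in the table) were also called lower (log2 fold changes -0.24 and -0.15), and Selenop (Sepp1 in the table) was called higher from 29 to 61 reads per library (log2 fold change 0.62, limma adjusted p = 0.0147). Within the 43 genes the selenoproteins Gpx4 and Txnrd3 were called lower and Gpx1, Txnrd1 and Txnrd2 were not called. On a list of 7 genes for the insertion of selenocysteine, 1 was called lower and 0 higher. It was Sephs1 (log2 fold change -0.33, limma adjusted p = 0.000907), a relative of selenophosphate synthetase that is not known to make selenophosphate itself.

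**Figure D4:**
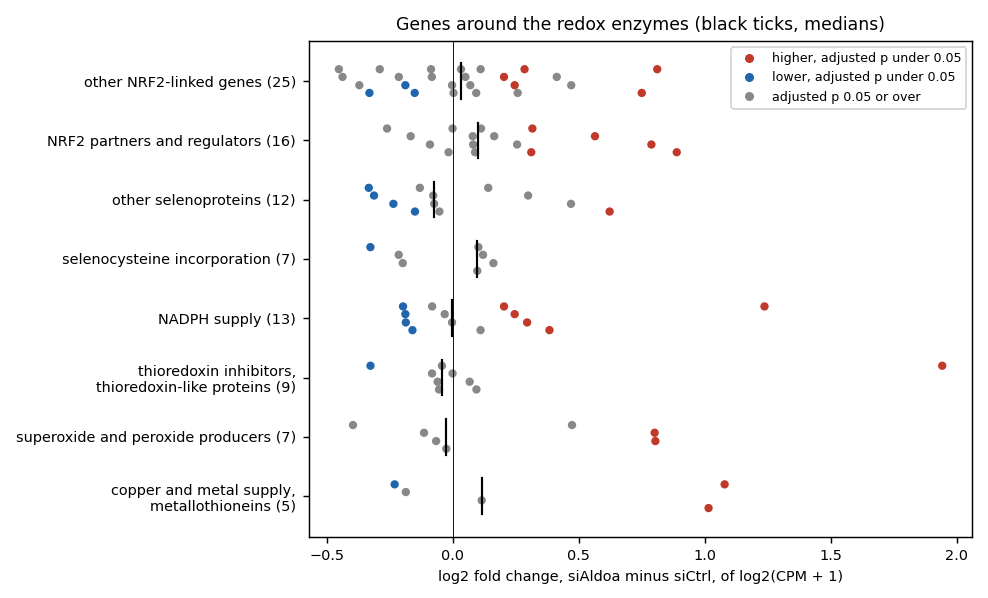
Log2 fold change in siAldoa against siCtrl on the log2(CPM + 1) scale (x axis) of genes that partner, feed or neighbour the redox enzymes, by list with the number of genes measured; each point is a gene, coloured by its call, and black ticks are medians. Arrdc4 (1.94) and Nadk2 (1.24) lie farthest to the right, and the medians of the lists lie between -0.076 and 0.11.

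Markers of other cell types were low throughout. The summed level of 7 macrophage markers was 19.4 to 26.8 CPM in siCtrl and 25.9 to 29.3 CPM in siAldoa, and Cd14 was called higher (log2 fold change 0.60, limma adjusted p = 0.00862), while Ptprc had 2 to 11 reads and Itgam 0 to 3 reads per library. The sum of 4 epithelial markers was 18.6 to 19.7 CPM in siCtrl and 7.86 to 14.2 CPM in siAldoa, with Cdh1 and Krt8 called lower. The sum of 3 endothelial markers was 7.40 to 8.47 CPM and 3.47 to 7.56 CPM, with 0 called. Their part in the values of the redox genes was not tested.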

How the data were processed

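RNA-sequencing of NIH/3T3 cells after siCtrl or siAldoa (3 libraries each) was analysed. The authors spiked in ERCC RNA (in replicate 1 in lysis buffer, in replicates 2 and 3 after extraction), isolated poly(A) RNA, made directional libraries, aligned the reads to mm10 with bowtie2 version 2.2.7, drew equal numbers of reads at random from each sample, counted reads by gene and deposited CPM values of an effective library size. Their methods drop genes with fewer than 12 reads over all samples, yet the table held 1834 such genes. ERCC values were not used here. The annotation release, the use of strand and the handling of multiply mapping reads are not given in the sources used here. Reads assigned to a pseudogene or near copy may come from the gene that it matches. A second deposited table holds the authors' own comparison (log2 fold changes, log2 mean CPM, p-values and adjusted p-values) and was not used.

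Whole reads were recovered by dividing each CPM by the value of 1 read, and 100% of values were whole within 0.01 read. The reads carry no molecular identifiers, so depth speaks for counting error only. For each gene log2(CPM + 1) was fitted in limma with a mean-variance trend and no filter (limma version 3.58.1 in R version 4.3.3). Such fold changes understate the change of genes with few reads. edgeR (version 4.0.16, quasi-likelihood and exact test) and DESeq2 (version 1.42.0) were run on recovered reads as alternatives, as were a pseudocount of 0.1, a filter on low genes, other scalings, no trend, the replicate number as a block, the spike-in handling as a term and libraries left out. The scripts were tested on simulated data. Gene positions are those of GENCODE M21 (GRCm38), in which all 43 genes and 17932 of 18001 identifiers were found. Similar transcripts were searched with blastn (version 2.17.0, at least 90% identity over 200 bases), and 16 of the 43 genes had one.

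The genes, their roles and all lists were chosen with earlier results of these data known. Every gene found is named under its role, called genes are given library by library, as are up to 2 uncalled genes per role with the highest mean CPM, and from each further list the 2 lowest and 2 highest called genes are named. Other measured genes of these lists are counted but not named, and a gene left out of the lists is not reported here. Replicates 1 and 2 of a group were closer to each other (a chi-square of their reads of 1.12 in siCtrl and 1.11 in siAldoa for each degree of freedom) than to replicate 3 (2.07 to 3.24). Counting error alone gives a ratio of 1. All were kept as separate replicates, as the labels number them, and averaging replicates 1 and 2 was an alternative.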

Additional observations from a re-analysis of the deposited data

How the results depend on the processing

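Under 23 alternatives all 19 called genes kept their sign, and 5 were called in every one of them (Sod3, Nqo1, Nfe2l2 and Akr1b8 higher, Txn1 lower). In many alternatives the sign could not change. The groups of all 19 genes did not overlap, so leaving out or averaging libraries keeps the sign. The limma fits without the trend, with the replicate block and with the spike-in term give the same fold changes as the reported fit. The counts of 10 lower and 9 higher became 2 and 6 without the mean-variance trend. Leaving out libraries gave 2 to 9 lower and 4 to 8 higher genes of the list, the fewest with 2 libraries per group. DESeq2 called 8 lower and 7 higher, and averaging replicates 1 and 2, an alternative chosen after seeing the data like the summing of near copies, gave 9 and 8. Over all genes 3676 calls in the reported fit became 1440 without the trend, 2183 with DESeq2 and 1014 to 2813 with libraries left out. The cause of these differences was not tested.

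The replicate block in limma gave the same counts of 10 lower and 9 higher, with 3170 calls over all genes, and changed no call among the 43 genes. Libraries with the same number deviated from the means of their groups with correlations of 0.0397, 0.0396 and 0.207 for replicates 1, 2 and 3 over 8271 genes, and since not every pair was above 0.1 the numbers were not taken as pairs. The replicate 3 libraries of both groups correlated best with each other (0.207), so they deviated in part in the same way. Their correlations with replicates 1 and 2 of the other group were negative (-0.1545 to -0.0795). Deviations from a group mean cancel within the group, so these negative values are tied to the positive one and add no evidence. In turn, siCtrl replicate 2 correlated best with siAldoa replicate 1 (0.125). What the replicate 3 libraries share was not tested.

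Values near 0 of 10 uncalled genes changed sign. Gstm2 had a log2 fold change of 0.025 with edgeR's quasi-likelihood test, 0.023 with the replicate block added, 0.024 with the exact test, 0.024 with DESeq2 and 0.062 with replicates 1 and 2 averaged. With quantile normalization Txnrd1 had 0.0069 and Prdx1 0.038. With libraries left out, the range was -0.11 to 0.017 for Keap1, -0.39 to 0.027 for Gss, -0.075 to 0.16 for Gsta4, -0.15 to 0.19 for Gstm2, -0.067 to 0.018 for Gstp1, -0.042 to 0.15 for Gstt1, -0.069 to 0.042 for Txnrd2 and -0.15 to 0.015 for Prdx5. The depth is too low to say anything of Gss and Gstt1.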

Other observations

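Genes that resemble thioredoxin or its inhibitor TXNIP, make peroxide or bind metals were measured beside the redox enzymes. Of 9 genes of thioredoxin-like proteins and TXNIP relatives, 1 was called higher and 1 lower (11.1% each, against 15.9% and 16.6% of all genes at 10 CPM or more). Arrdc4, an arrestin-domain relative of the thioredoxin inhibitor TXNIP, had 12.6, 12.6 and 15.3 CPM in siCtrl and 54.2, 51.6 and 58.1 CPM in siAldoa (log2 fold change 1.94, limma adjusted p = 1.07e-11). The siAldoa libraries were all far above the siCtrl libraries. Tmx1, a thioredoxin-like protein of the endoplasmic reticulum, was called lower (log2 fold change -0.33, limma adjusted p = 0.000204). Txnip was not analysed here.

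Of 7 genes that make superoxide or peroxide, 2 were called higher and 0 lower, and of the 3 at 10 CPM or more 1 was called higher. Over all genes 10.4% were called higher and 10.0% lower, and at 10 CPM or more 15.9% and 16.6%. Xdh, xanthine dehydrogenase, had 106, 97.7 and 109.5 CPM in siCtrl and 185, 167 and 197 CPM in siAldoa (log2 fold change 0.80, limma adjusted p = 1.36e-09). The groups were well apart. Duox2 was called higher from 1 to 6 reads per library (log2 fold change 0.80, limma adjusted p = 0.0298). On a list of 5 genes for copper and metal supply, 2 were called higher and 1 lower, and of the 4 at 10 CPM or more 2 and 1. Both metallothioneins, cysteine-rich metal-binding proteins, rose. Mt1 had 96.7, 99.3 and 107 CPM in siCtrl and 189, 207 and 219.7 CPM in siAldoa (log2 fold change 1.02, limma adjusted p = 1.27e-11), and Mt2 had 15.9, 18.1 and 16.9 CPM in siCtrl and 30.8, 34.2 and 47.7 CPM in siAldoa (log2 fold change 1.08, limma adjusted p = 2.41e-06). The copper chaperone Atox1 was called lower (log2 fold change -0.23, limma adjusted p = 0.0391).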
